A study of Mus musculus with 4 samples.

Results

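The genes described here encode the enzymes that turn glucose into pyruvate and the lactate dehydrogenases that convert pyruvate and lactate into each other, measured in mouse dorsal root ganglia, which hold the cell bodies of the sensory neurons that innervate the trunk and limbs. They are the 10 genes Ldha, Ldhb, Hk1, Hk2, Pfkm, Pfkp, Aldoa, Aldoc, Eno2 and Pgk1, and every probe set that the platform annotation assigns to 1 of them alone was taken, 23 of the 45101 on the array. The study hybridised total RNA from freshly dissected ganglia to 4 Affymetrix mouse arrays, 2 with RNA from ganglia of the level labelled sample-2 and 2 with RNA from the other level, labelled sample-1. The labels do not name the anatomical levels. The labels give no strain, age, sex or number of animals, and no treatment other than fresh dissection. They do not say whether the 2 arrays of a level hold RNA of different animals, and the p-values therefore cover a spread that may be technical. The comparison asked which of these transcripts differed between the 2 levels.

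Hexokinase, phosphofructokinase, aldolase, phosphoglycerate kinase and enolase are enzymes of glycolysis, given in the order in which they act, and most exist as isoforms from separate genes with different tissue preferences. Lactate dehydrogenase is assembled from A subunits (Ldha, the muscle type) and B subunits (Ldhb, the heart type). Enzyme rich in A subunits is known to favour making lactate, and enzyme rich in B subunits is known to favour turning lactate back into pyruvate. In the peripheral nerve, glia are thought to pass lactate to axons as a fuel.

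Ldhb was lower at the sample-2 level on all 4 of its probe sets, and 3 of the 4 passed an adjusted p of 0.05 (limma), a threshold at which 0.4% of all 27022 tested probe sets were called lower. Its partner Ldha averaged 1.07 times its sample-1 intensity at the sample-2 level and did not pass. Hk2, an inducible hexokinase, averaged 1.86 times its sample-1 intensity at the sample-2 level, without passing. The remaining 7 genes differed by at most 0.25 on the log2 scale on every tested probe set. Values are the authors' intensities, scaled to a common trimmed mean on every array, so each difference is relative to the other RNA on the array. In bulk tissue, fewer cells of a type and less RNA per cell cannot be told apart.

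The array was checked against the labels before the comparison. All 10 pan-neuronal markers had a tested probe set, and their summed intensity was 39917 to 41719 on the sample-2 arrays and 38124 to 38720 on the sample-1 arrays. Of the 10, 1, Syt1, was called, higher at the sample-2 level. The median intensity of all probe sets was 25.9 to 27.3 on the 4 arrays. Array 2 of the sample-1 level stood apart in skeletal muscle markers. The summed intensity of 17 such markers was 2549 and 1681 on arrays 1 and 2 of the sample-2 level, against 2173 and 10896 on arrays 1 and 2 of the sample-1 level. Of these 17, 1, Myh2, was called, lower at the sample-2 level. Myh2 was dim, at 2.16 and 11.7 on the sample-2 arrays and 42.8 and 119.6 on arrays 1 and 2 of the sample-1 level. The median difference of the list was -1.06 with all arrays and -0.06 without that array, an alternative chosen after seeing the data. The number of arrays limits the precision of every value.

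The upstream sequences of Ldhb, Ldha and Hk2 are shown because the results turn on these genes. Each is the 250 bases before a RefSeq transcription start on GRCm38.p6, read 5′ to 3′ on the gene's strand. Capitals mark ACGTG or GCGTG on either strand, the core letters at which the hypoxia-inducible factor HIF-1, a known activator of glycolytic genes, binds.
Ldhb, chr6:142507958-142508207, minus strand: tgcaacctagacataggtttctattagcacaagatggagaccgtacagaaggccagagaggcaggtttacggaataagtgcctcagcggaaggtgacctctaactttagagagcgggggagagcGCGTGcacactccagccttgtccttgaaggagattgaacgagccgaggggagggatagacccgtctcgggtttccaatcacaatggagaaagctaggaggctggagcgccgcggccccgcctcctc
Ldha, chr7:46845554-46845803, plus strand: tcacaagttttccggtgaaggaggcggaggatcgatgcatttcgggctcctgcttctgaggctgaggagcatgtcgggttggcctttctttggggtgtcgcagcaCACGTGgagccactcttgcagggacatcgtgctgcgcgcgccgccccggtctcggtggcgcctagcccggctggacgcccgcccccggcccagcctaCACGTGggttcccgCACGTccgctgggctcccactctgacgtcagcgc
Hk2, chr6:82774455-82774704, minus strand: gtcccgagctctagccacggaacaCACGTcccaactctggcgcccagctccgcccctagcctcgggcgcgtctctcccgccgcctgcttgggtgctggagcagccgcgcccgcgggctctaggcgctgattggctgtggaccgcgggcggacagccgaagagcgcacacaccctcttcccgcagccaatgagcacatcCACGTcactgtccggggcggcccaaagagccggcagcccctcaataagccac
The Ldhb window held 1 GCGTG and 0 ACGTG, the Ldha window 5 matches to ACGTG and the Hk2 window 2. A CACGTG holds ACGTG on both strands and was counted once for each. Ldha has another annotated start, whose window held 1 GCGTG. All 10 genes had an entry, with 18 windows among them, some of which overlap. Either motif was found in 14 of the 18 windows, against 38.6% of the 32851 windows of all genes. The window of Eno2 and single windows of Hk1, Pfkm and Aldoa lacked both. A match is a description of letters and not a binding site, and the median GC content was 55.8% in the 18 windows and 52.4% in all.

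Ldhb was measured by 4 probe sets, which target the same gene and are not independent measurements of it. Of these, 1448237_x_at and 1455235_x_at end in _x_at, a suffix for probe sets that can match more than 1 transcript. Probe set 1416183_a_at of Ldhb read 1538 and 1323 on the sample-2 arrays, against 2008 and 1954 on the sample-1 arrays. Probe set 1448237_x_at read 1855 and 1735 on the sample-2 arrays, against 2357 and 2426 on the sample-1 arrays. On both, each sample-2 array lay below each sample-1 array. Probe set 1455235_x_at read 1829 and 1543 on the sample-2 arrays, against 2323 and 2431 on the sample-1 arrays. The brightest Ldhb probe set, 1434499_a_at, read 2048 and 1885 on the sample-2 arrays, against 2427 and 2525 on the sample-1 arrays. The levels overlapped on none of the 4, and on each the lowest reading came from array 2 of the sample-2 level. Such separation was common, at 20.1% of all tested probe sets with the sample-2 arrays the lower and 21.1% with them the higher.

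The mean of probe set 1416183_a_at of Ldhb was 1430 ± 152 at the sample-2 level and 1981 ± 38.2 at the sample-1 level (SD, n = 2 each). With limma on log2(intensity + 16), where 16 is a pseudocount that damps noise at low signal, it fell by 0.47 ± 0.08 (log2 difference ± SE, adjusted p = 0.0344). Probe set 1448237_x_at fell by 0.41 ± 0.07 (limma, adjusted p = 0.0312) and 1455235_x_at by 0.50 ± 0.09 (limma, adjusted p = 0.0303). The brightest, 1434499_a_at, differed by -0.33 ± 0.07 and did not pass (limma, adjusted p = 0.0774). On the same scale the fitted sample-2 level was between 0.709 and 0.795 times the sample-1 level over the 4 probe sets. Adjustment ran over all tested probe sets.

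These 3 Ldhb probe sets were the only calls among the 22 tested probe sets of the 10 genes, and all were lower at the sample-2 level. Among all tested probe sets 0.4% were called lower, 0.222% higher and 0.622% in either direction. Since the 3 calls come from 1 gene, they count as 1 gene of 10. With a gene judged by its brightest probe set, 0 of 10 passed with limma. Of those 10, 4 had an unadjusted p under 0.05 (limma), namely Ldhb, Hk2, Pfkp and Aldoc. Among all 27022 tested probe sets 2933 had such a p. The call depended on which arrays were used. The adjusted p of the 3 probe sets was 0.0696 to 0.120 without array 1 of the sample-1 level, 0.0889 to 0.143 without array 2 of that level, 0.103 to 0.135 without array 2 of the sample-2 level and 0.00526 to 0.0245 without array 1 of the sample-2 level (limma). Ldhb lay below 0 on all 4 probe sets under each of the 12 alternative fits, but most of these could not have reversed the sign. Changing the filter, the trend or the block leaves the fitted difference as it was. Since the levels did not overlap, neither another pseudocount nor the omission of 1 array could turn it positive. Only quantile normalization and median centring could have done so. Without the filter on low signal 0 of the 3 calls were left, and without the intensity trend in the variance 0 (limma). In these fits 6 and 5 of the tested probe sets of the 10 genes had an unadjusted p under 0.05 (limma). Over all genes the counts were 3777 of 45037 and 2456 of 27022.

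**Figure D1:**
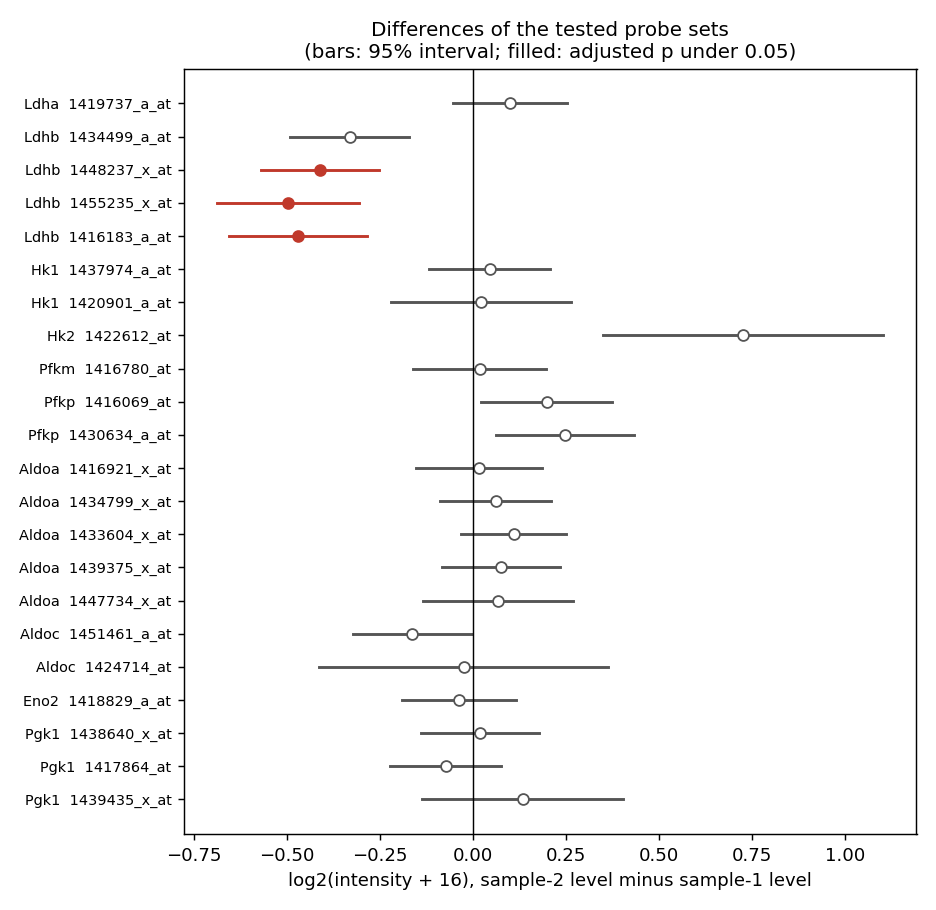
Log2 difference of each tested probe set (sample-2 level minus sample-1 level, on the log2(intensity + 16) scale), with its 95% interval from limma. The 4 Ldhb probe sets lie between -0.50 and -0.33, Hk2 lies at 0.73, and filled points mark the 3 probe sets past adjusted p 0.05.

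Ldha, the A subunit, read 2905 and 2857 on the sample-2 arrays, against 2795 and 2583 on the sample-1 arrays. Both sample-2 arrays were the higher, and the lowest reading came from array 2 of the sample-1 level. The mean was 2881 ± 34.1 at the sample-2 level and 2689 ± 150.1 at the sample-1 level (SD, n = 2 each), and the difference of 0.10 ± 0.07 did not pass (limma, adjusted p = 0.66). Its 95% interval covered 0.965- to 1.19-fold. Ldha had a single probe set on the array.

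Relative to Ldha, Ldhb was lower on both sample-2 arrays than on either sample-1 array. The quantity log2(Ldhb + 16) minus log2(Ldha + 16), taken from the brightest probe set of each gene, was -0.50 and -0.60 on the sample-2 arrays and -0.20 and -0.03 on the sample-1 arrays. Only its change between levels can be read, because probe sets differ in how brightly they report a transcript. It averaged -0.55 ± 0.07 at the sample-2 level and -0.12 ± 0.12 at the sample-1 level (SD, n = 2 each), a change of -0.43. The 2-sided exact permutation test gave p = 0.333, the smallest that 2 against 2 arrays allow. With the other Ldhb probe sets in its place the change was -0.51, -0.57 and -0.60. A ratio within an array compares the 2 transcripts and does not show that either was constant. With 2 against 2 arrays the test cannot decide whether they changed unequally. The ratio also reuses the Ldhb and Ldha readings given above and is not separate evidence.

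**Figure D2:**
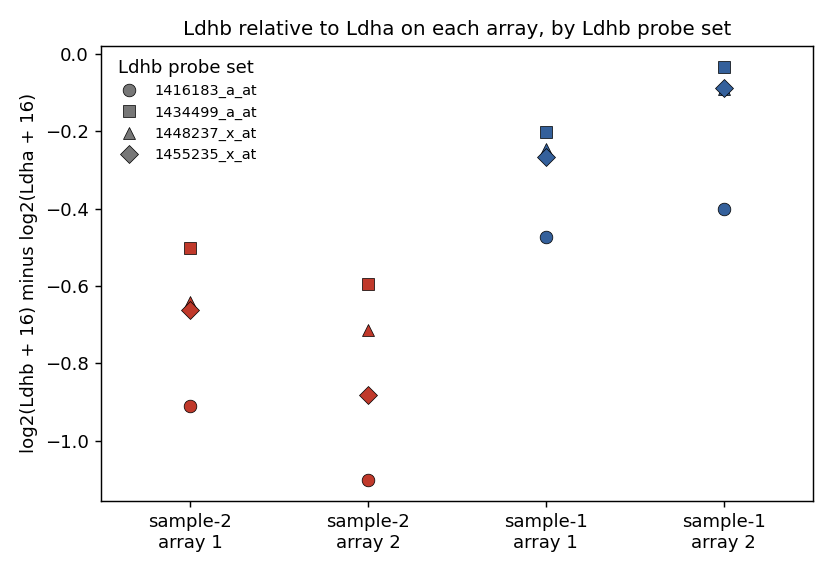
Log2 ratio of Ldhb to Ldha on each array (vertical axis, log2 units), with 1 marker shape for each of the 4 Ldhb probe sets against the single Ldha probe set. For every shape both sample-2 arrays lie below both sample-1 arrays, and for 1434499_a_at the arrays read -0.50 and -0.60 at the sample-2 level and -0.20 and -0.03 at the sample-1 level.

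Hexokinases trap glucose in the cell as glucose 6-phosphate. Hk2, the insulin-responsive form best known from muscle and fat, read 110.2 and 86.9 on the sample-2 arrays, against 49.1 and 56.9 on the sample-1 arrays. Both sample-2 arrays were above both sample-1 arrays. The mean was 98.5 ± 16.4 at the sample-2 level and 53.0 ± 5.47 at the sample-1 level (SD, n = 2 each). The difference of 0.73 ± 0.17 did not pass (limma, adjusted p = 0.0981), although it was larger in size than 98.6% of all tested probe sets. Because Hk2 was dim, its fitted difference depended on the pseudocount, at 0.88 with 1 and 0.47 with 64. The size was 0.58 to 0.87 with each array left out in turn. Hk1, the main hexokinase of the brain, read 1662 and 1589 on the sample-2 arrays, against 1591 and 1557 on the sample-1 arrays with its brighter probe set. The levels overlapped, and the difference of 0.05 ± 0.07 did not pass (limma, adjusted p = 0.88). The other Hk1 probe set differed by 0.02 ± 0.11.

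Phosphofructokinase commits sugar to glycolysis. Pfkp, the platelet-type subunit, read 2751 and 2455 on the sample-2 arrays, against 2377 and 2154 on the sample-1 arrays. Its second tested probe set read 826.3 and 825.0 on the sample-2 arrays, against 701.4 and 684.3 on the sample-1 arrays. Both sample-2 arrays were the higher on each probe set, but the differences of 0.20 ± 0.08 and 0.25 ± 0.09 did not pass (limma, adjusted p = 0.385 and 0.279). A further Pfkp probe set read 17.2 and 16.1 at the sample-2 level and 11.6 and 6.87 at the sample-1 level. It was the 1 probe set of the 23 that lay below the filter on low signal, at an intensity of 14.3, and was not tested. Pfkm, the muscle-type subunit, read 1308 and 1257 on the sample-2 arrays, against 1208 and 1327 on the sample-1 arrays. The levels overlapped, and the 95% interval of the difference covered 0.895- to 1.15-fold.

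Aldolase splits fructose 1,6-bisphosphate. Aldoc, the isoform of brain, read 1747 and 1695 on the sample-2 arrays, against 1881 and 1976 on the sample-1 arrays with its brighter probe set. Both sample-2 arrays were the lower, and the difference of -0.16 ± 0.07 did not pass (limma, adjusted p = 0.451). The dimmer Aldoc probe set read 51.4 and 49.8 on the sample-2 arrays, against 52.2 and 51.3 on the sample-1 arrays, with overlapping levels. Aldoa, the isoform of muscle and most other tissues, had 5 probe sets, all ending in _x_at, a suffix for probe sets that can match more than 1 transcript. The brightest read 7022 and 6022 on the sample-2 arrays, against 6141 and 6726 on the sample-1 arrays. The 5 differences were 0.02 to 0.11, with adjusted p from 0.583 to 0.966 (limma), and the levels overlapped on 4 of the 5. With quantile normalization the brightest differed by -0.02.

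Pgk1, phosphoglycerate kinase, makes ATP in the pathway. With its brightest probe set, which ends in _x_at, it read 3050 and 3334 on the sample-2 arrays, against 3268 and 3031 on the sample-1 arrays. The levels overlapped, and the 95% interval covered 0.908- to 1.13-fold. Its other probe sets differed by -0.07 ± 0.07 and 0.13 ± 0.12 and did not pass (limma, adjusted p = 0.768 and 0.764). Eno2, the neuron-specific enolase, read 2582 and 2490 on the sample-2 arrays, against 2521 and 2685 on the sample-1 arrays. The levels overlapped here too, with a difference of -0.04 ± 0.07 (limma, adjusted p = 0.904).

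**Figure D3:**
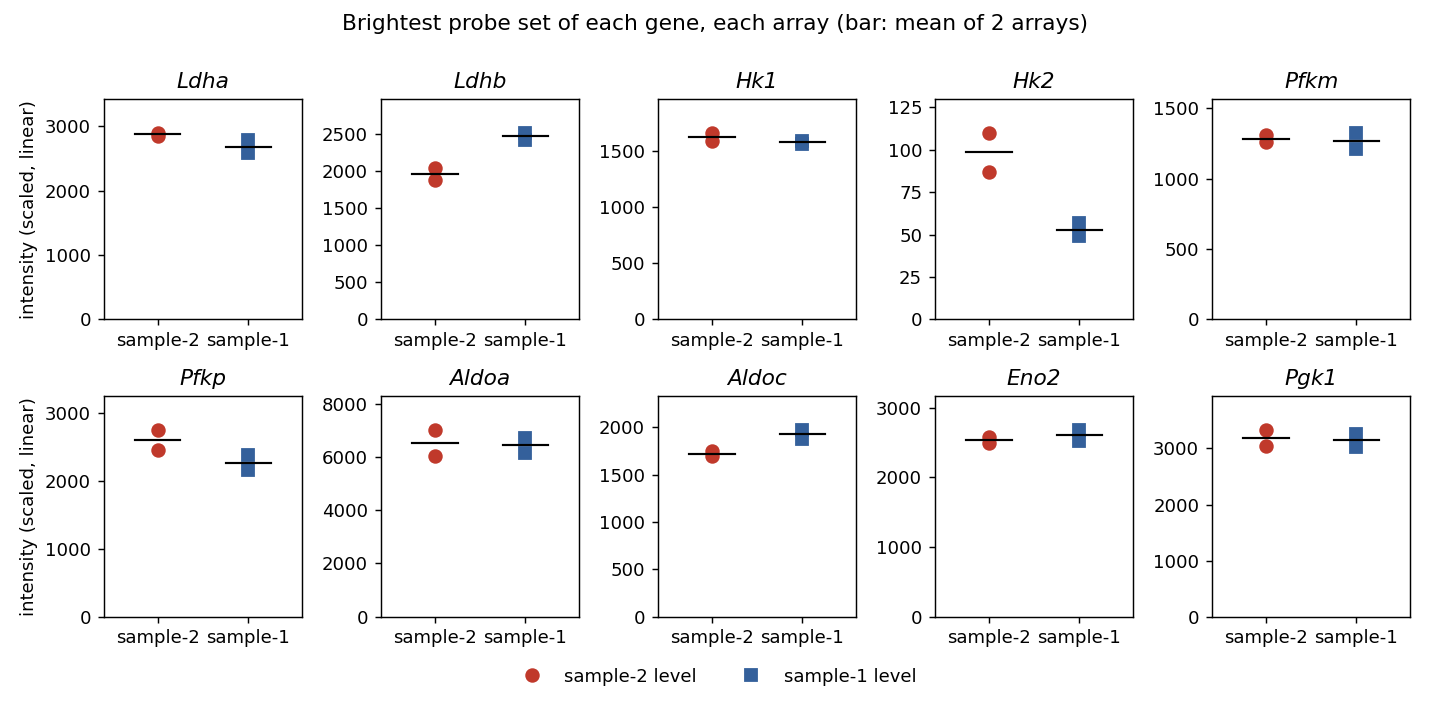
Scaled intensity on a linear axis from 0 for the brightest probe set of each gene, with 1 point for each array and a bar for the mean of the 2 arrays of a level. The levels separate for Ldhb, Hk2, Pfkp, Aldoc and Ldha, with Ldhb at 2048 and 1885 on the sample-2 arrays and 2427 and 2525 on the sample-1 arrays, and overlap for the other 5 genes. Among all tested probe sets the levels separate on 20.1% with the sample-2 arrays the lower and on 21.1% with them the higher.

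Taken as a set, the 22 tested probe sets had a median difference of 0.02, against 0.00 over all tested probe sets. Of the 22, 14 lay above 0 and 8 below, against 51.1% above 0 among all tested probe sets, and 5 of the 14 belong to Aldoa. The levels did not overlap, with the sample-2 arrays the lower, on 6 of the 22, against 20.1% of all tested probe sets, and with the sample-2 arrays the higher on 5 of the 22, against 21.1%. The 6 lower ones were the 4 of Ldhb and 1 each of Aldoc and Pgk1. The tested probe sets had a median brightness at the 97.8th percentile of all probe sets. Outside Ldhb and Hk2 no 95% interval reached below 0.751-fold or above 1.35-fold.

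Related genes were taken from 2 lists. Of 26 further glycolytic enzymes and regulators 16 had a tested probe set, and by the brightest 0 passed with limma. An unadjusted p under 0.05 was found for 1 (limma), against 2933 of all 27022 tested probe sets. Of the 16, 6 lay above 0 and 10 below, with a median of -0.04. Hk3, a hexokinase of blood cells, had the largest difference at 0.79 ± 0.30 (limma, adjusted p = 0.344). Its readings were 24.6 and 35.6 on the sample-2 arrays and 4.66 and 18.1 on the sample-1 arrays. Hk3 was dim, and its probe set ends in _x_at, so its difference depends on the pseudocount and may include other transcripts. Pgam2, the muscle phosphoglycerate mutase, read 39.7 and 36.7 on the sample-2 arrays, against 29.6 and 130.7 on the sample-1 arrays. Of 25 genes that handle glucose, glycogen, lactate and pyruvate 24 were tested, and by the brightest probe set 0 passed with limma, 6 had an unadjusted p under 0.05, 7 lay above 0 and 17 below, with a median of -0.06. The largest differences were those of Pygm, muscle glycogen phosphorylase, at -1.19 ± 0.42 (limma, adjusted p = 0.287), and Slc2a4, the insulin-regulated glucose transporter, at -0.93 ± 0.31 (limma, adjusted p = 0.254). Both were dim, so these differences depend on the pseudocount. Gpd1, cytosolic glycerol 3-phosphate dehydrogenase, named after its values were seen, had the lowest adjusted p of that list. It read 73.3 and 75.9 on the sample-2 arrays, against 118.6 and 132.9 on the sample-1 arrays, without overlap, and the difference of -0.64 ± 0.15 did not pass (limma, adjusted p = 0.0838).

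Eno3, Pgam2 and Pygm read highest on array 2 of the sample-1 level, the array on which muscle markers were high. Eno3, the muscle enolase, named here after its values were seen, read 177.1 and 171.1 on the sample-2 arrays, against 126.1 and 469.6 on the sample-1 arrays. Array 2 of the sample-1 level was 3.72 times array 1 of that level for Eno3, 4.42 times for Pgam2 and 3.62 times for Pygm. By the brightest probe set of each of the 10 genes the same ratio lay between 0.907 for Pfkp and 1.16 for Hk2, and was 1.04 for Ldhb, 0.924 for Ldha, 1.10 for Pfkm and 1.095 for Aldoa. Without array 2 of the sample-1 level the 4 Ldhb probe sets differed by -0.30 to -0.49.

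**Figure D4:**
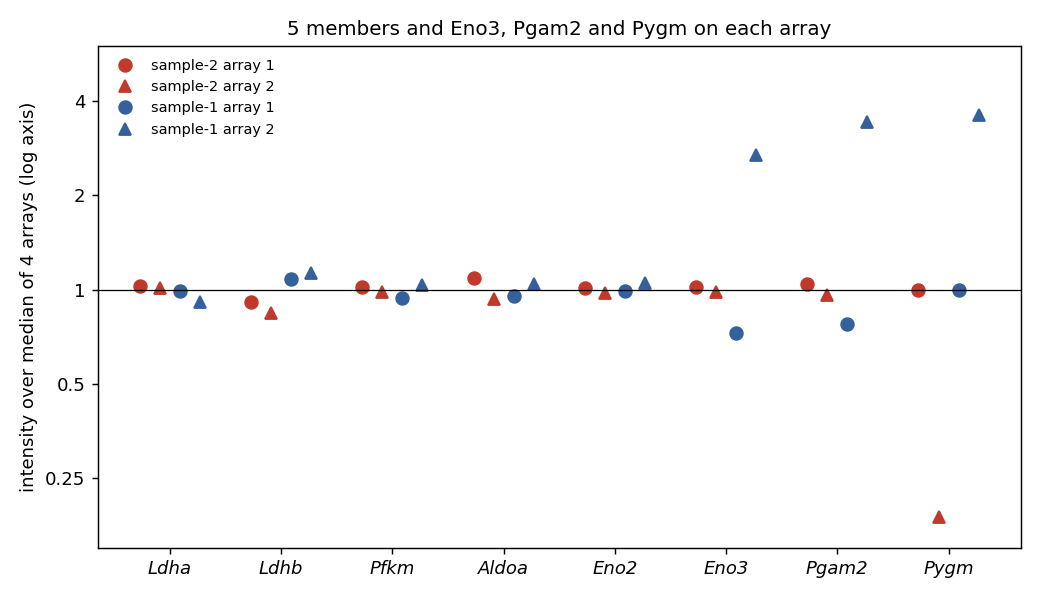
Intensity of each gene's brightest probe set on each array, divided by the gene's median over the 4 arrays (log axis). Array 2 of the sample-1 level reads 2.70 times the median for Eno3, 3.42 times for Pgam2 and 3.62 times for Pygm, and between 0.914 and 1.13 times for Ldha, Ldhb, Pfkm, Aldoa and Eno2.

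Markers of several cell types were called between the levels. Of all tested probe sets 0.4% were called lower at the sample-2 level and 0.222% higher. Of 10 tested markers of large-fibre neurons 3 were called lower at the sample-2 level (Pvalb, Cntnap2 and Calb2). By direction 8 of the 10 lay below 0 and 2 above, with a median of -0.19. The summed intensity of the 10 was 21833 to 23937 on the sample-2 arrays and 24609 to 25628 on the sample-1 arrays. Of 9 Schwann cell markers 1, Pmp2, was called lower, but all 9 lay below 0, with a median of -0.49. Their sums were 14252 to 18453 on the sample-2 arrays and 19076 to 20870 on the sample-1 arrays. Of 10 fibroblast and meningeal markers 6 were called lower (Col1a2, Col3a1, Dcn, Lum, Mfap5 and Ptgds), and all 10 lay below 0, with a median of -0.46. Their sums were 8434 to 8862 on the sample-2 arrays and 13339 to 15234 on the sample-1 arrays. Called higher at the sample-2 level were 2 of 9 small-fibre neuron markers (Trpv1 and Tac1), and all 9 lay above 0, with a median of 0.33. Their sums were 24577 to 25369 on the sample-2 arrays and 21076 to 21216 on the sample-1 arrays. Also called higher were 6 of 7 neutrophil markers (S100a8, S100a9, Lcn2, Camp, Ngp and Ltf), and all 7 lay above 0, with a median of 1.01. Their sums were 6585 to 8269 on the sample-2 arrays and 3275 to 3909 on the sample-1 arrays. Of 2 tested red cell markers 1, Slc4a1, was called higher, and both lay above 0. Of 7 satellite glia and 2 adipocyte markers 0 passed with limma, where 2 and 1 had an unadjusted p under 0.05. Among all 27022 tested probe sets 2933 had such a p. All 7 satellite glia markers lay below 0 and both adipocyte markers above. No marker was listed at 0. The part of these shifts in the difference of Ldhb was not tested.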

How the data were processed

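The authors deposited 1 intensity per probe set and array on a linear scale. Every column had a mean of 150.0 after trimming 2% at each end, so these intensity values were scaled before they were deposited. Nothing here states the software, the steps or the genome build behind them, and detection calls were not used. Intensities were taken as log2(intensity + 16). The 64 control probe sets and those under the 40th percentile of mean signal were left out, leaving 27022. The model was limma 3.58.1 under R 4.3.3 (lmFit and eBayes with an intensity trend) as sample-2 minus sample-1 level without covariates, with 2 residual degrees of freedom and 9.71 from moderation, and Benjamini-Hochberg adjustment over all of them. Gene names came from the platform annotation, in which 34945 probe sets had 1 symbol, 932 several and 9160 none. 34741 matched the RefSeq gene table by gene ID, and sequences are RefSeq's (GRCm38.p6). Each gene was represented by its brightest tested probe set where 1 was needed. The rule for named genes took all 10 genes with every probe set. Of the other lists it took the genes past the threshold, and the 2 that differed most where fewer than 2 passed. The marker lists depart from this rule, and only their genes past the threshold are named. The members and lists were chosen with earlier results of these data known. Alternatives were pseudocounts of 1 and 64, quantile normalization, median centring, no filter or one at the 60th percentile, no intensity trend, a block for the array number, and the omission of each array in turn.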

Additional observations from a re-analysis of the deposited data

How the results depend on the processing

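The 3 calls among the 22 tested probe sets became 0 without the filter on low signal, 0 without the intensity trend and 0 with the brightest probe set of each gene only, 1 with each array centred on its median, 1 without probe sets ending in _x_at or _s_at (13 tested, Ldhb again) and 5 with a block for the array number (Ldhb on all 4 probe sets and Hk2). They ranged from 0 to 3 with single arrays left out. The calls over all genes, 168, became 4 without the filter, 104 with centring, 793 with the block and 1 without the trend, and ranged from 102 to 241 with an array left out. Calls among the other glycolytic genes stayed at 0 under every alternative that kept all 4 arrays. Without array 1 of the sample-1 level, Pgam2 differed by -1.44, Eno3 by -1.35 and Pygm, of the second list, by -1.88. In that fit the only sample-1 array is array 2, on which muscle markers were high. Gpd1 was called with the block (limma, -0.64, adjusted p = 0.0220). The median of the muscle markers was -0.0618 without array 2 of the sample-1 level. When an array is left out, the lone array of its level is assumed to vary like the others. The labels do not say whether arrays of the same number belong together. Their deviations correlated at 0.0263, and 1 correlation from 4 arrays cannot decide it. The fit with the block is therefore given only as an alternative and is no evidence of pairing. The change of the Ldhb to Ldha log ratio was -0.52 to -0.35 with an array left out and -0.53 with the mean of all probe sets. Of 263 refits of single probe sets, 230 kept direction and side of the threshold, 17 lost the call, 2 gained it and 14 changed sign, none of them called. Refits that changed only the filter, the trend or the block could not change the direction. Those sign changes were -0.0185 for the brightest Aldoa probe set with quantile normalization, and with an array left out -0.0935 to 0.127, -0.0206 to 0.144, -0.00072 to 0.154 and -0.00020 to 0.136 for 4 Aldoa probe sets, -0.0820 to 0.0082 for Eno2, -0.133 to 0.179 for the dimmer Hk1 probe set, -0.0490 to 0.0853 for Pfkm and -0.0451 to 0.0830 and -0.0718 to 0.339 for 2 Pgk1 probe sets. The cause of these changes was not tested.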

Other observations

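Gapdh, the glycolytic enzyme between aldolase and phosphoglycerate kinase, was measured here by 3 control probe sets for RNA quality, which were left out of the fit. The 3′ probe set read 6705 and 6004 on the sample-2 arrays, against 6148 and 6478 on the sample-1 arrays. The middle probe set read 7409 and 6700 on the sample-2 arrays, against 6904 and 6885 on the sample-1 arrays, and the levels overlapped on all 3. The 3′ to 5′ ratio was 0.776 to 0.808 over the 4 arrays.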
